A study of Mus musculus with 12 samples.

Results

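Chemokines are small secreted proteins that direct the movement of leukocytes and other cells, and they act through G protein-coupled receptors named after the ligand class they bind. The 4 ligand classes, CC, CXC, CX3C and XC, are named for the spacing of conserved cysteines, and the atypical receptors (Ackr genes) bind chemokines without the usual G protein signal and remove or redistribute them. In skin, keratinocytes of the epidermis and hair follicle are a known source of chemokines, and Langerhans cells and epidermal T cells are placed in the epithelium through the matching receptors.

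This gene family was examined in keratinocytes from the skin of mice of strain C57 DBA, which had been separated by magnetic sorting (MACS) into cells with CD34 at their surface (CD34+), a glycoprotein that marks the follicle bulge, and cells without it (CD34-). Skin of at least 6 mice was pooled for each of 3 isolations, and each RNA was placed on 2 Affymetrix mouse expression arrays, which gave 12 arrays, 6 for each fraction. No treatment, allele or age is given for the mice, and both fractions share the strain and tissue. Here n = 6 counts arrays from 3 RNA samples, and the array pairs of an RNA are not named in the labels. P-values that treat 12 arrays as separate are therefore too small. Standard errors and 95% intervals from the same fit are likewise too narrow. The labels also do not name which CD34+ and CD34- arrays share an isolation, so the fit uses no pairing.

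The members were the genes with a Ccl, Cxcl, Ccr, Cxcr or Ackr symbol followed by a number, with Xcl1, Xcr1, Cx3cl1 and Cx3cr1. They came to 54 of the 18193 genes measured: 33 ligands, 17 receptors and 4 atypical receptors. Where several probe sets were tied to a gene alone, the one with the highest mean stood for it. Values are log2 RMA expression values (robust multi-array average, a summary of the probes of a probe set), so a difference of 1 is a doubling, and levels are not compared between genes because probe sets differ in response. The sort marker Cd34 averaged 10.15 ± 0.55 (SD, n = 6) on CD34+ and 3.23 ± 0.30 on CD34- arrays. All 10 bulge markers examined were higher in CD34+ cells. Of 9 measured keratinocyte markers 5 were lower and 0 higher, among them Krt14 at 11.83 ± 0.62 against 13.20 ± 0.25, and the keratinocyte markers averaged 11.29 or more on every array.

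RMA gives no detection call. As a mark of the low end, 19 genes of other organs, such as albumin and growth hormone, had fraction means of 2.29 to 5.50, and 90 percent of these means lay at or under 4.51. By that mark 31 of the 54 members read low in both fractions, against 6907 of the 18193 genes. The SD over all probe sets was 1.93 to 2.08 on CD34+ arrays 1, 3 and 5 and 2.19 to 2.32 on the other 9 arrays. The 31 low members averaged 3.61 to 3.73 on those 3 arrays, 3.30 to 3.50 on the other CD34+ arrays and 3.25 to 3.38 on CD34- arrays. For Actb, the 3' control probe set exceeded the 5' one by 3.95 to 5.65 in CD34+ and 1.82 to 3.24 in CD34- arrays, and the part of these array differences in the results was not tested.

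Chemokine genes changed in both directions. Of the 54 members 18 passed the test (limma, p under 0.05 after Benjamini-Hochberg adjustment across the 18193 genes), 9 higher and 9 lower in CD34+ cells. Over all genes 26.1% passed, 7.99% higher and 18.1% lower, and among the members the share was 33.3%. The 9 higher genes were the ligands Cxcl9, Cxcl14, Cxcl12, Cxcl10, Ccl24, Ccl4 and Ccl11, the atypical receptor Ackr1 and the receptor Cxcr2. The 9 lower genes were the receptors Cxcr6, Cx3cr1 and Ccr6, the atypical receptors Ackr3, Ackr4 and Ackr2, and the ligands Xcl1, Cx3cl1 and Cxcl16. The arrays of the fractions did not overlap for 9 members, and this held for 12.9% of all genes. The median log2 fold change was 0.18 over the members and 0.04 over all genes. In these cell fractions, fewer cells of a type and less RNA per cell cannot be told apart.

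**Figure D1:**
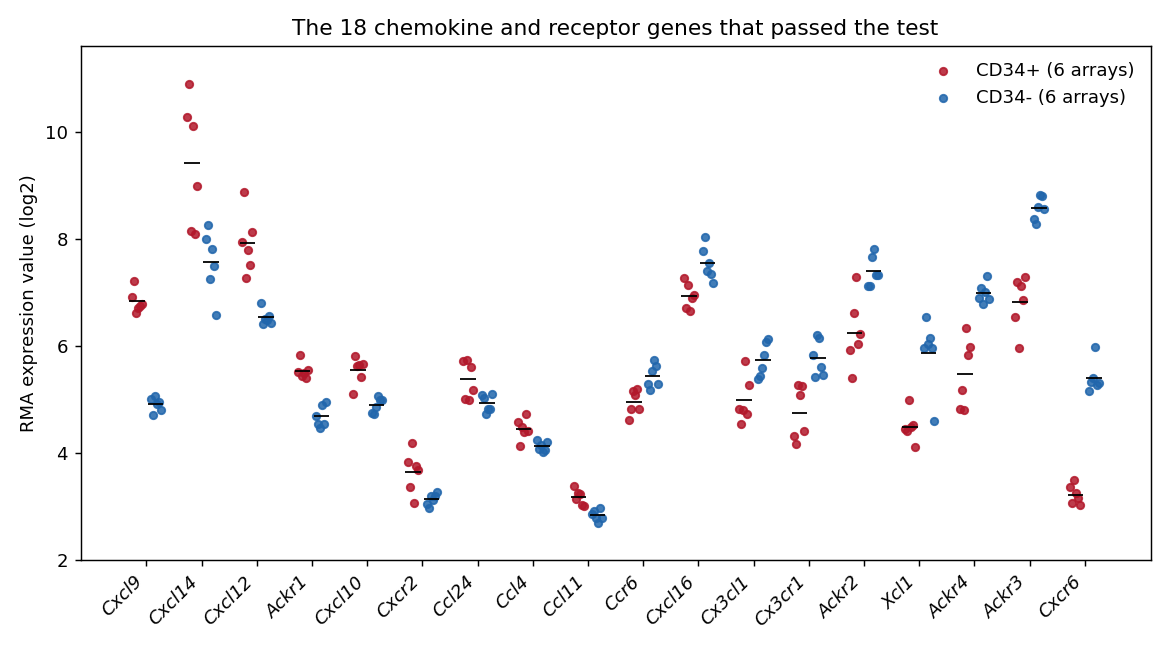
RMA values (log2, vertical axis) of the 18 members that passed, ordered by fold change; each point is an array, red for the 6 CD34+ and blue for the 6 CD34- arrays, and bars are means. Cxcl9 lies at 6.61 to 7.20 in CD34+ against 4.70 to 5.06 in CD34- arrays, and Cxcr6 at 3.02 to 3.49 against 5.15 to 5.97.

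Calls of the 9 higher members were uneven in how they held. Cxcl9, Cxcl10, Cxcl12, Cxcl14 and Ackr1 passed under every alternative run on them, while Ccl4, Ccl24, Ccl11 and Cxcr2 did not. Without CD34+ array 4 the count of higher members was 15, and 2068 in place of 1454 of all genes were higher. Without CD34+ arrays 1, 3 and 5, an exclusion chosen with earlier results known, 6 members were higher and 8 lower. Of the 18 called, 13 were called again, and 19.2% in place of 26.1% of all genes passed.

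Of the 13 CXC ligands 4 were higher and 1 lower, with a median log2 fold change of 0.58. That was 38.5% called, against 26.1% of all genes. Cxcl9 (1.92) and Cxcl14 (1.85) had the largest rises of the family, and their order turned with the setting, with ranges over the alternatives of 1.82 to 2.05 for Cxcl9 and 1.56 to 2.43 for Cxcl14, the latter highest without CD34+ arrays 1, 3 and 5. Cxcl9 is a ligand of Cxcr3 induced by interferon gamma. In CD34+ arrays it was at 6.61 at the lowest, 6.76 at the median and 7.20 at the highest, and in CD34- arrays at 4.70, 4.93 and 5.06. Every CD34+ array lay above every CD34- array, and the spread within a fraction was small beside the gap between them. The means were 6.83 ± 0.21 and 4.91 ± 0.14 (SD, n = 6), a 3.79-fold difference (log2 fold change 1.92, SE 0.11, limma adjusted p = 1.16e-07). A further probe set of Cxcl9, at 3.37 against 2.93 and so below the low mark in both fractions, passed too (log2 fold change 0.44, limma adjusted p = 0.0240 over all probe sets).

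Cxcl10, a related Cxcr3 ligand, ran from 5.10 over a median of 5.64 to 5.81 in CD34+ and from 4.73 over 4.92 to 5.06 in CD34- arrays. The groups did not overlap, although the lowest CD34+ value stood only just above the highest CD34- value. Between the fractions it differed by a log2 fold change of 0.65 ± 0.12 (SE; limma adjusted p = 0.00160). Cxcl11, a further ligand of this receptor and a neighbour of both genes in the genome, was at 4.43 ± 0.31 and 4.32 ± 0.16 (SD, n = 6) and did not pass (95% interval of the log2 fold change -0.20 to 0.40). Cxcr3 itself, found on activated T cells, was at 4.36 ± 0.08 and 4.46 ± 0.11, below the low mark in both fractions (interval -0.29 to 0.08).

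The stretches of 250 bases before the annotated starts of Cxcl9 and Cxcl10 are shown because these neighbouring genes were higher together. No promoter entry was available for Cxcl11, so it was not searched. Sequences are from RefSeq on GRCm38.p6 and are written 5' to 3' on the minus strand, at chr5:92328080-92328329 and chr5:92348890-92349139. Capitals mark matches, on either strand, to 3 patterns. The interferon-stimulated response element was searched as GAAA, 2 free bases and GAAA, the gamma-activated site as TTC, 3 free bases and GAA, and the NF-kB site as GGG, 2 free bases, TT, 1 free base and CC, the last settled with these sequences in view.
Cxcl9: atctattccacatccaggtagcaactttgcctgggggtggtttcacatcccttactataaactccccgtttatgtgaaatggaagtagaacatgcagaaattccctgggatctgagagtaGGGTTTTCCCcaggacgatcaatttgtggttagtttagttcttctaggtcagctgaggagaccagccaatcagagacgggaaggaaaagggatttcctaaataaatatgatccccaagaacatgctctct
Cxcl10: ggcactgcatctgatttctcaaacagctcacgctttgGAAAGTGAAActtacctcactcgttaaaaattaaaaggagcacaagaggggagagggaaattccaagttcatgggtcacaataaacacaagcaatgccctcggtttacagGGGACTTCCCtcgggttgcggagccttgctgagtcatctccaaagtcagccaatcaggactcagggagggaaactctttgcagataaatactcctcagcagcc

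The Cxcl10 stretch held GAAAGTGAAA at 213 to 204 bases before the start and GGGACTTCCC at 103 to 94, and the Cxcl9 stretch held GGGTTTTCCC at 130 to 121. Of 32851 promoters of the same length, 2.98% held the response element pattern, 7.02% the gamma-activated pattern and 4.11% the NF-kB pattern, and the matches shared no bases in these stretches. Of the 41 members with a promoter in the table, the NF-kB pattern was found in 9 (Ccl20, Ccl9, Ccr3, Ccr6, Cxcl1, Cxcl10, Cxcl2, Cxcl3 and Cxcl9), the gamma-activated pattern in 4 (Ccl17, Ccr1l1, Ccr6 and Cxcl14) and the response element pattern in 2 (Cxcl10 and Cxcl14). Members were counted as genes with a match at any listed start, and the percentages are over single promoters, so the 2 are not compared. The NF-kB count includes Cxcl9 and Cxcl10, whose sequences were in view when that pattern was settled. A match is a description of the letters and not a shown binding site.

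Cxcl14, a chemokine made constitutively by skin epithelium, was at 8.09 at the lowest, 9.54 at the median and 10.88 at the highest in CD34+ arrays, and at 6.57, 7.64 and 8.25 in CD34- arrays. CD34+ arrays 3 and 5 lay within the CD34- range and the other 4 above it, so this gene varied most among CD34+ arrays of those that passed (SD 1.18). It was 3.61-fold higher by the means (log2 fold change 1.85, SE 0.46, limma adjusted p = 0.00991). Its other probe set was also higher (log2 fold change 1.30, limma adjusted p = 0.0109 over all probe sets).

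Cxcl12, the ligand of Cxcr4 that holds stem cells and leukocytes in their niches in several tissues, ran from 7.27 over 7.86 to 8.88 in CD34+ and from 6.40 over 6.49 to 6.79 in CD34- arrays. The groups did not overlap. The fit gave a log2 fold change of 1.39 ± 0.21 (SE; limma adjusted p = 0.000399), and 1 of its 2 further probe sets was higher by 1.44 while the other, at 3.91 against 3.86, did not pass. Beside this ligand, the fibroblast list had 6 of 12 measured markers higher and 0 lower, with a log2 summed level of 10.22 to 12.34 in CD34+ and 9.60 to 10.73 in CD34- arrays. Its collagen gene Col1a2 was at 8.26 ± 0.46 against 5.11 ± 0.49 (SD, n = 6), and the part of such cells in the Cxcl12 and Cxcl14 values was not tested.

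The ligands of Cxcr2 that draw neutrophils were less regular. Cxcl1 was at 5.21 at the lowest, 7.40 at the median and 7.92 at the highest in CD34+ arrays, and at 5.38, 5.89 and 6.17 in CD34- arrays. CD34+ array 4 lay below all CD34- arrays, array 6 within their range and the other 4 above it. The log2 fold change of 1.13 (95% interval 0.25 to 2.01) did not pass (limma adjusted p = 0.0559), but did without CD34+ array 4 (1.48, adjusted p = 0.00271) or array 6 (1.33, adjusted p = 0.0293). It also passed with the replicate block (adjusted p = 0.00792), with the filter on low values (0.0303) and after a further quantile normalization (0.0483). Without CD34+ arrays 1, 3 and 5 the log2 fold change was 0.51 (adjusted p = 0.513), and over all alternatives the adjusted p ran from 0.00271 to 0.513. The other Cxcl1 probe sets gave 0.65 (limma adjusted p = 0.299 over all probe sets) and 0.67 (0.0836), and neither passed. Cxcl2 was at 4.06 ± 0.78 and 3.24 ± 0.52 (SD, n = 6), also without passing. Cxcl3 (2.39 and 2.38) and Cxcl5 (2.47 and 2.45) read at the low end in both fractions.

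Cxcr2, the receptor of these ligands on neutrophils, passed at low values, with 3.06 at the lowest, 3.72 at the median and 4.18 at the highest in CD34+ arrays and 2.96, 3.15 and 3.27 in CD34- arrays. Its log2 fold change came to 0.52 ± 0.16 (SE; limma adjusted p = 0.0268) and fell to 0.24 without CD34+ arrays 1, 3 and 5 (adjusted p = 0.256). Leaving out CD34+ array 1 or 5, or CD34- array 1, 2 or 4, also ended the call (adjusted p 0.0525 to 0.0614, and 0.00284 to 0.256 over all alternatives). Of 5 measured neutrophil markers 0 passed and 4 read below the low mark in both fractions.

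Cxcl16 was the CXC ligand that fell. It is a membrane-bound chemokine, shed as a soluble form, and binds Cxcr6. Its values were 6.65 at the lowest, 6.92 at the median and 7.26 at the highest in CD34+ arrays and 7.17, 7.47 and 8.03 in CD34- arrays, so that the highest CD34+ array reached into the CD34- range and the other 5 lay under it. By the means this was a log2 fold change of -0.61 ± 0.15 (SE; limma adjusted p = 0.0105), and the other probe set gave -1.07 (limma adjusted p = 0.0101 over its fit of all probe sets). After a further quantile normalization the difference was -0.32 and did not pass (adjusted p = 0.327, in a range of 0.00288 to 0.327 over the alternatives). The remaining CXC ligands Cxcl13 (0.48), Cxcl15 (0.36) and Cxcl17 (0.58) did not pass.

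**Figure D2:**
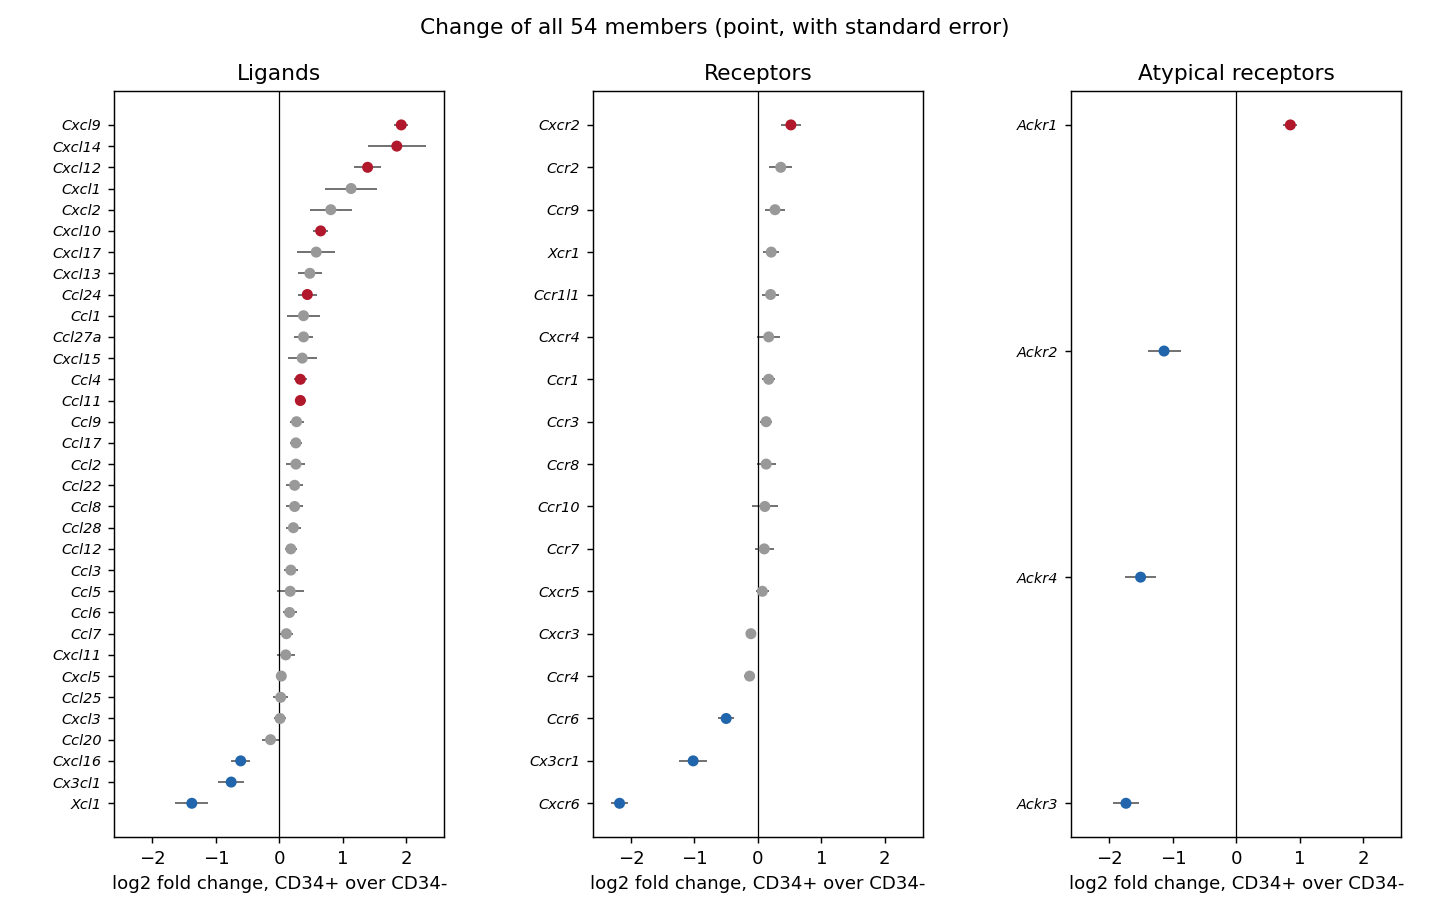
Log2 fold change of CD34+ over CD34- arrays (horizontal axis) for all 54 members by role; points carry limma's standard error, red marks genes higher, blue genes lower and grey those that did not pass. Ligands run from -1.38 (Xcl1) to 1.92 (Cxcl9), receptors from -2.18 (Cxcr6) to 0.52 (Cxcr2) and atypical receptors from -1.74 (Ackr3) to 0.85 (Ackr1).

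CC ligands showed small differences. Of 18 measured, 3 were higher and 0 lower, with a median log2 fold change of 0.24, and 13 read below the low mark in both fractions. The share called was 16.7%, against 26.1% of all genes. The eosinophil chemokine Ccl24 averaged 5.37 ± 0.35 (SD, n = 6) on CD34+ arrays and 4.93 ± 0.16 on CD34- arrays. CD34+ arrays 1, 3 and 5 held its highest values (5.71, 5.74 and 5.60), and array 6 (5.18) also lay above the CD34- range of 4.73 to 5.09. Between the fractions it differed by a log2 fold change of 0.44 ± 0.15 (SE; limma adjusted p = 0.0467), and 0.13 without arrays 1, 3 and 5 (adjusted p = 0.513). Leaving out any of CD34+ arrays 1, 3 and 5 or any CD34- array ended the call (adjusted p 0.0561 to 0.107, and 0.0176 to 0.513 over all alternatives).

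Ccl4, a ligand made by activated T cells and macrophages, had a log2 fold change of 0.33 (SE 0.10, limma adjusted p = 0.0322) at 4.45 ± 0.20 and 4.12 ± 0.09 (SD, n = 6). The call was lost without CD34+ arrays 1, 3 and 5 (0.19, adjusted p = 0.240), and on leaving out CD34+ array 1 or 5 or CD34- array 2, 3, 4 or 5 (adjusted p 0.0525 to 0.0742, and 0.00899 to 0.240 over all alternatives). Ccl11, or eotaxin, was at 3.17 ± 0.14 and 2.83 ± 0.10, and the arrays did not overlap (log2 fold change 0.33, adjusted p = 0.0183). It lost the call with the 3 arrays left out (0.28, adjusted p = 0.0613) and after median centring (0.23, adjusted p = 0.0698; range over the alternatives 0.0156 to 0.072), as did Ccl4 (0.23, adjusted p = 0.0909) and Ccl24 (0.34, adjusted p = 0.0772). Both Ccl4 and Ccl11 read below the low mark in both fractions. The genes of other organs, at the same end of the scale, had 2 of 19 higher, 0 lower and a median log2 fold change of 0.18.

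The CC ligands Ccl2, Ccl20, Ccl8 and Ccl27a did not pass. Ccl2 (interval -0.07 to 0.59) and Ccl20 (-0.42 to 0.14), which draw Langerhans cell precursors through Ccr2 and Ccr6, were at 4.32 ± 0.34 against 4.07 ± 0.20 and at 5.05 ± 0.18 against 5.19 ± 0.26 (SD, n = 6). Ccl8, known from the bulge as a ligand of Ccr8, was at 4.16 ± 0.28 and 3.93 ± 0.11 (interval -0.03 to 0.51), below the low mark in both fractions. Ccl27a, whose product draws Ccr10-bearing T cells to skin, was at 5.58 ± 0.32 and 5.20 ± 0.20 and did not pass (0.38, limma adjusted p = 0.0761). Leaving out CD34+ array 3 (0.44, adjusted p = 0.0441) or CD34+ arrays 1, 3 and 5 (0.56, adjusted p = 0.0344) brought it past the threshold, with a range of 0.023 to 0.251 over the alternatives. Of 2 probe sets shared by 5 genes including Ccl27a and Ccl27b, set aside for their ambiguity, 1 was at 10.34 ± 0.38 in CD34+ and 10.94 ± 0.44 in CD34- arrays, and the other, with the means in the opposite order, at 5.69 ± 0.34 and 5.39 ± 0.18. Those shared by the Ccl21 genes (3.84 and 3.58) and by Ccl19 and its copies (4.17 and 3.93) read low. The remaining CC ligands Ccl1, Ccl3, Ccl5, Ccl6, Ccl7, Ccl9, Ccl12, Ccl17, Ccl22, Ccl25 and Ccl28 had log2 fold changes of 0.02 (Ccl25) to 0.38 (Ccl1).

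The XC and CX3C ligands fell. Xcl1, or lymphotactin, is made by T and NK cells, epidermal gamma delta T cells included. It ran from 4.11 over 4.47 to 4.99 in CD34+ and from 4.59 over 5.99 to 6.54 in CD34- arrays. CD34- array 6, at 4.59, stood apart from the other 5 CD34- arrays, which all lay above every CD34+ array. The fit gave a log2 fold change of -1.38 (SE 0.26, limma adjusted p = 0.00167). The CD34+ mean of Xcl1, 4.49, lay just under the low mark, so no fold is given. Its receptor Xcr1, carried by cross-presenting dendritic cells, was at 3.14 ± 0.22 and 2.93 ± 0.20 (SD, n = 6) and did not pass.

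Cx3cl1, or fractalkine, is a membrane-anchored ligand of epithelium and endothelium. It was at 4.54 at the lowest, 4.80 at the median and 5.72 at the highest in CD34+ arrays and at 5.38, 5.71 and 6.12 in CD34- arrays. CD34+ array 4 reached the CD34- range and the other 5 lay under it. Its log2 fold change came to -0.76 ± 0.20 (SE; limma adjusted p = 0.0127), and -0.56 without CD34+ arrays 1, 3 and 5 (adjusted p = 0.147, in a range of 0.00127 to 0.147). A look at the 3 other probe sets gave log2 fold changes of -0.06 to 0.05, none past the threshold.

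Receptors of epidermal leukocytes held the largest fall of the family. Cxcr6, the receptor of Cxcl16 on T cells, was at 3.02 at the lowest, 3.20 at the median and 3.49 at the highest in CD34+ arrays and at 5.15, 5.32 and 5.97 in CD34- arrays. No array of one fraction came near the range of the other. The fitted log2 difference was -2.18 (SE 0.14, limma adjusted p = 2.39e-07), and the other probe set, at 2.79 against 4.65, gave -1.86 (adjusted p = 1.24e-05 over all probe sets). The CD34+ means of both lay under the low mark, so no fold is given.

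Cx3cr1, the fractalkine receptor of macrophages, Langerhans precursors and some T cells, ran from 4.17 over 4.74 to 5.27 in CD34+ and from 5.41 over 5.71 to 6.20 in CD34- arrays, with no overlap. By the means this was a log2 fold change of -1.02 ± 0.22 (SE; limma adjusted p = 0.00403), while its other probe set read 3.11 and 3.00. Ccr6, the receptor of Ccl20, was at 4.95 ± 0.23 and 5.44 ± 0.22 (SD, n = 6), with 5 of 6 CD34+ arrays under the CD34- range (log2 fold change -0.50, SE 0.13, adjusted p = 0.0141).

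These receptors and Xcl1 moved beside markers of T cells. All 10 measured T cell markers were lower in CD34+ cells, with a mean over the list of 4.80 to 5.51 in CD34+ and 6.27 to 7.16 in CD34- arrays and a log2 summed level of 8.50 to 9.54 against 10.52 to 11.44. RMA gives no value of 0 to any marker. Their T cell receptor chain Cd3g was at 5.78 ± 0.62 against 9.07 ± 0.44 (SD, n = 6). Of 15 Langerhans and myeloid markers 4 were lower and 2 higher, with a median log2 fold change of -0.01. Their log2 summed level was 9.82 to 10.32 against 10.27 to 11.16. The Langerhans cell lectin Cd207 was at 4.61 ± 0.19 against 5.72 ± 0.47. The 2 that were higher were Mpeg1 (0.71) and Ly86 (0.47), the latter below the low mark in both fractions. The part of these cells in the Cxcr6, Cx3cr1, Ccr6 and Xcl1 values was not tested.

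**Figure D3:**
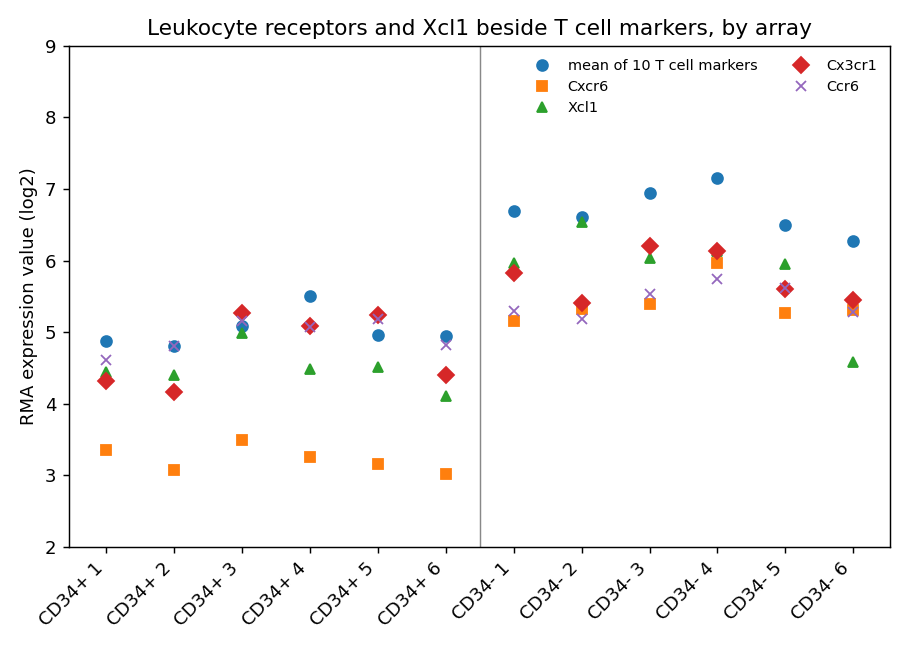
RMA values (log2, vertical axis) of Cxcr6, Xcl1, Cx3cr1 and Ccr6 and the mean of 10 T cell markers on each of the 12 arrays; a line parts the fractions. The T cell mean is 6.27 or higher on CD34- arrays and 5.51 or lower on CD34+ arrays, and Xcl1 on CD34- array 6 (4.59) falls among the CD34+ values.

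Of the 17 receptors 12 read below the low mark in both fractions, and 13 did not pass. The share that passed was 23.5%, against 26.1% of all genes. Cxcr4, the signalling receptor of Cxcl12, was at 3.30 ± 0.38 and 3.14 ± 0.27 (SD, n = 6; interval -0.21 to 0.55). Ccr7, which guides dendritic cells to lymph nodes, was at 3.21 ± 0.36 and 3.10 ± 0.10, and Ccr8, a receptor of skin T cells, at 3.33 ± 0.32 and 3.20 ± 0.18. Ccr10 was at 4.58 ± 0.52 and 4.47 ± 0.16, with its 3 highest values on CD34+ arrays 1, 3 and 5 (4.96, 5.19 and 4.89). Ccr2, the monocyte receptor of Ccl2, was at 6.29 ± 0.44 and 5.93 ± 0.19 by the probe set used (interval -0.02 to 0.75), and its 3 other probe sets read 3.03 to 3.23 and 2.81 to 3.12. It passed only without CD34+ array 4 (adjusted p = 0.0414, in a range of 0.0414 to 0.994). The remaining receptors Ccr1, Ccr1l1, Ccr3, Ccr4, Ccr9 and Cxcr5 had log2 fold changes of -0.13 (Ccr4) to 0.27 (Ccr9).

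All 4 atypical receptors passed, 3 lower and 1 higher in CD34+ cells, where 26.1% of all genes passed. Ackr3, which takes up Cxcl12 and Cxcl11, was at 5.95 at the lowest, 6.99 at the median and 7.28 at the highest in CD34+ arrays and at 8.28, 8.57 and 8.81 in CD34- arrays. The highest CD34+ array lay well under the lowest CD34- array. The difference was 3.35-fold (log2 fold change -1.74, SE 0.20, limma adjusted p = 5.21e-05), opposite in direction to that of its ligand Cxcl12.

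Ackr2, a scavenger of inflammatory CC chemokines, ran from 5.39 over 6.13 to 7.28 in CD34+ and from 7.11 over 7.32 to 7.80 in CD34- arrays, with CD34+ array 4 in the CD34- range. Between the fractions it differed by a log2 fold change of -1.14 ± 0.26 (SE; limma adjusted p = 0.00479). Of its other probe sets 1 fell as well, at 3.41 against 4.29, below the low mark, with a log2 fold change of -0.88 (limma adjusted p = 0.000231 over all probe sets), and the other, at 4.55 against 4.37, did not pass.

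Ackr4, which removes Ccl19, Ccl21 and Ccl25, was at 4.80 at the lowest, 5.49 at the median and 6.34 at the highest in CD34+ arrays and at 6.78, 6.94 and 7.31 in CD34- arrays, without overlap (log2 fold change -1.51, SE 0.24, limma adjusted p = 0.000588). Its probe sets disagreed: both others were on the other side of 0, at 0.72 and 0.64, without passing (adjusted p = 0.173 for each over all probe sets).

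Ackr1, known from red cells and the endothelium of venules as a receptor that binds both CC and CXC chemokines, was at 5.39 at the lowest, 5.50 at the median and 5.83 at the highest in CD34+ arrays and at 4.47, 4.61 and 4.95 in CD34- arrays. The groups did not overlap (log2 fold change 0.85, SE 0.11, limma adjusted p = 0.000138). Of 12 endothelial markers 1 was higher and 9 read below the low mark in both fractions, with a log2 summed level of 7.67 to 8.17 in CD34+ and 7.55 to 7.67 in CD34- arrays. Their defining marker Pecam1 was at 3.31 ± 0.27 and 3.06 ± 0.14 (SD, n = 6), below the low mark. Ramp2 was the marker that passed, at 4.17 ± 0.30 against 3.53 ± 0.16 (limma adjusted p = 0.00372), also below the low mark. All 12 had a positive log2 fold change, with a median of 0.20, beside 0.18 for the genes of other organs. The part of endothelial cells in the Ackr1 values was not tested.

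**Figure D4:**
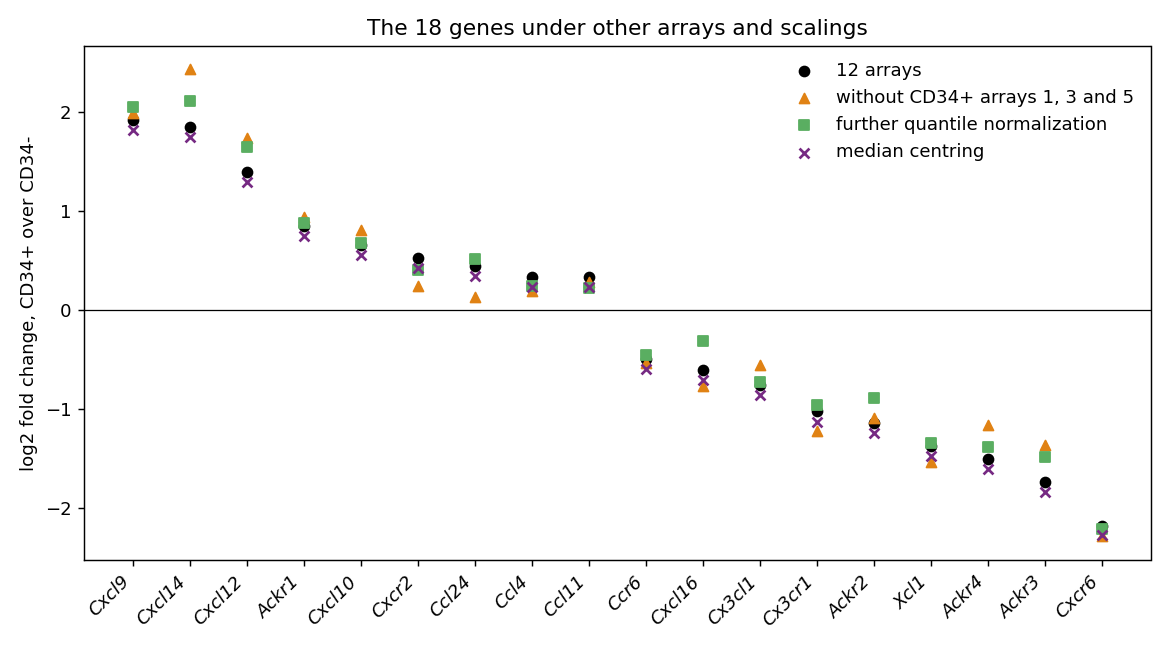
Log2 fold change (vertical axis) of the 18 members that passed, with all 12 arrays, without CD34+ arrays 1, 3 and 5, after a further quantile normalization and after median centring. All points of a gene lie on the same side of 0; Ccl24 falls from 0.44 to 0.13 without the 3 arrays and Cxcl14 goes from 1.85 to 2.43.

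Other genes of the pathway were read from lists chosen with earlier results of these data known. Of 29 measured genes that couple the receptors (G protein subunits, arrestins, receptor kinases and Rgs proteins, which shorten G protein signals), 12 were lower and 3 higher. That was 51.7% called, against 26.1% of all genes, with a median log2 fold change of -0.21. Only 6 of them read below the low mark in both fractions. All genes above that mark in a fraction had 37.2% called and a median of -0.19. Rgs1 (-2.40), Rgs2 (-1.69), the arrestin Arrb1 (-1.31) and Rgs10 (-1.11) fell most. Of 25 measured migration effectors 7 were lower and 1 higher, with a median of -0.13. The share called was 32.0%, against 26.1% of all genes and 37.2% of all genes above the low mark in a fraction. Only 5 of these effectors read below that mark in both fractions. Those that fell most were the leukocyte actin regulator Coro1a (-1.89), the kinase Prkcb (-1.38), the GTPase Rac1 (-0.98) and the adaptor Crk (-0.87). The focal adhesion protein Pxn, chosen after its value was seen, was the 1 that rose (0.79).

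Of 29 measured genes of the pathways that induce chemokines 10 were lower and 3 higher (44.8% called, against 26.1% of all genes), with a median of -0.37. This list holds NF-kB inhibitors, Tnfaip3 and Nfkbie (-0.91) among the lower genes, so its count gives no direction of induction. Only 4 of the 29 genes read below the low mark in both fractions. Among all genes above that mark in a fraction 37.2% were called, with a median of -0.19. The interferon gamma receptor chain Ifngr1 averaged 7.50 ± 0.58 (SD, n = 6) on CD34+ and 9.50 ± 0.30 on CD34- arrays (limma adjusted p = 5.86e-05). The NF-kB inhibitor Tnfaip3 (-1.53), the interleukin-1 receptor Il1r1 (-1.19) and the NF-kB subunit Relb (-1.11) fell as well. Irf1, an interferon-induced factor chosen after its value was seen, was lower too (-0.46). The 3 that rose, likewise chosen after their values were seen, were Tlr2 (1.08), Il17a (0.39) and Tnfrsf1b (0.26), of which Il17a read below the low mark. Of 8 related proteins outside the symbol rule, the MHC class II invariant chain Cd74 (-0.77) and the cytokine Mif (-0.57) fell, the platelet chemokine Pf4 (0.48) and the chemerin gene Rarres2 (0.41) rose, and 4 did not pass.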

How the data were processed

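The deposited values are log2 RMA summaries, which the authors made per the submitters' processing notes. The RMA version, and whether all 12 arrays were normalized together, are not given in the sources used here. Of 45101 probe sets 64 controls were set aside, and GEO's platform annotation tied 34945 to 1 gene, 932 to several and left 9160 unnamed here. That gave 18193 genes, each represented by whichever probe set averaged highest across the 12 arrays. Of 86 probe sets tied to a member, 54 were used.

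CD34+ and CD34- arrays entered a limma fit (version 3.58.1, R 4.3.3) without a block, each array as a sample, and eBayes p-values, two-sided, were adjusted by Benjamini-Hochberg across genes and called under 0.05. The test was checked on simulated data in which every array was drawn independently, so the check does not cover arrays that share an RNA. Positive values mean higher in CD34+ cells, and the 3 RNA samples of each fraction limit the precision. Adjusted p-values of further probe sets are over all 34945. The members, lists and alternatives were chosen with earlier results of these data known. Members that passed, the 6 with the highest means and 20 fixed for their roles in skin are given in full, and of each pathway list up to 4 that passed. Other pathway genes were chosen after their values were seen, as is said beside them. Krt14, Col1a2, Cd3g, Cd207 and Pecam1 are examples from the cell type lists, picked by no fixed rule. Of these, Krt14, Col1a2 and Cd3g differed most in their lists. Ramp2, Mpeg1 and Ly86 were named after their values were seen.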

Additional observations from a re-analysis of the deposited data

Results flagged for a closer look

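In 58 groups of 6 arrays (29 members in each fraction), 5 had an array far from the others by Dixon's criterion, and chance flags about 1 group in 20. Among CD34+ arrays, array 2 of Ackr1 read 5.83 where the next was 5.55, and array 3 of Ccr7 read 3.92 where the next was 3.22. Among CD34- arrays, array 4 was highest for Cxcr3, at 4.67 with the next at 4.46, and for Cxcr6, at 5.97 with the next at 5.39. Array 6 was lowest for Xcl1, at 4.59 with the next at 5.95, and without it the log2 fold change of Xcl1 was -1.63 (limma adjusted p = 2.62e-05).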

How the results depend on the processing

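Of the 18 members called, 12 kept their call in the same direction under each of 17 or 18 alternatives run on them (further scaling, a filter on low values, averaged or left-out arrays, a block). The other 6, Ccl4, Ccl11, Ccl24, Cxcr2, Cx3cl1 and Cxcl16, lost it under at least 1, 10 members gained one under at least 1, and 0 were called in the opposite direction. The cause was not tested. Leaving out single arrays gave 6 to 15 higher members, beside 1041 to 2068 higher genes over all genes, and 9 lower members each time. Without CD34+ arrays 1, 3 and 5 the members' median log2 fold change was 0.01 in place of 0.18, and 1900 in place of 3296 genes were lower. Median centring gave 904 in place of 1454 higher genes and moved the median of all genes from 0.04 to -0.06; 80.7% of calls were then lower, against 69.4% as reported and 54.9% after quantile normalization. With a replicate block on array number, 9 members were higher and 9 lower, with Ccl4 and Ccl24 lost and Cxcl1 and Cxcl2 gained (same-numbered arrays had correlations of deviations of -0.27 to 0.502, above 0.1 for 4 of 6, and 3 of 6 correlated best with their own number, so whether the numbers pair the arrays is unsettled); means of arrays 1-2, 3-4 and 5-6 gave 9 and 9, with Ccl11 lost and Cxcl17 gained. Low signal limits the 31 members under the low mark, where a missed call does not show equal levels.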
